A study of Mus musculus with 4 samples.

Results

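Tenascins, thrombospondins, SPARC proteins and glypicans are matrix or cell-surface proteins that astroglia make and that act on synapses, and 10 of their genes were followed here in the cerebellum of Dicer mutant mice. The genes were Tnc, Tnr, Thbs1, Thbs2, Thbs3, Thbs4, Sparc, Sparcl1, Gpc4 and Gpc6, taken by the gene name on the array. They are 10 of 28632 names on the design and were read by 19 of its 41174 probes. Whole cerebella were taken at postnatal day 30 from 4 Dicer mutants and 4 control littermates, and the total RNA of each littermate pair was hybridised to 1 of 4 two-colour arrays. Mutants carried mGfap-Cre, a Cre recombinase driven by a mouse Gfap promoter, and 2 floxed alleles of Dicer (Dicer flox/flox). Controls carried the same Cre with 1 floxed and 1 wild-type allele (Dicer +/flox), so Cre itself did not differ between the groups, and all animals were of mixed strain background. Dicer is the enzyme that cuts mature microRNAs from their precursors. The Gfap promoter is active in astroglia, while the RNA came from whole cerebellum, so a lower share of a cell type and less RNA per cell cannot be told apart in any value below.

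In the cerebellum the main astroglial cells are Bergmann glia, whose processes wrap the synapses of Purkinje neurons, and the astrocytes of the granular layer and white matter. Tenascin-C (Tnc) is a large matrix glycoprotein that is made by glia during development and again after injury, whereas tenascin-R (Tnr) belongs to the mature nervous system and is made mainly by oligodendrocyte lineage cells and some neurons. Thrombospondins secreted by immature astrocytes promote the formation of excitatory synapses through the calcium channel subunit encoded by Cacna2d1. Hevin (Sparcl1) promotes synapse formation as well and SPARC (Sparc) counters it, while glypicans 4 and 6 are heparan sulfate proteoglycans that recruit AMPA-type glutamate receptors to synapses.

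Of the 10 genes, 7 gave enough signal to be tested. Tnc and Thbs2 passed the test as higher in the mutants, and none of the 7 passed it as lower. Tnc was 4.56-fold higher and Thbs2 1.52-fold higher, both in every pair. Thbs3, Sparc, Sparcl1, Gpc4 and Gpc6 did not pass the test as genes, although the second probe of Gpc4 did in the fit over single probes. Tnr, Thbs1 and Thbs4 did not pass the filter on dim probes, which asks for signal well above background in all 4 mutants or all 4 controls. Ratios are given as log2 of the mutant level over the level of its control littermate, as mean ± SD over the 4 pairs, and adjusted p values are from limma with Benjamini-Hochberg adjustment over all 18024 genes tested, or over all 25913 probes where a single probe is meant. A gene or probe was called at an adjusted p under 0.05. In that comparison 0.588% of all genes were called higher and 0.444% lower, and 0.486% of all probes were called higher and 0.343% lower. The genes were chosen with earlier results of these data known, so the count of 2 in 7 is a description and supports nothing about the set. The median log2 ratio of the 7 tested genes was 0.07, against 0.00 over all genes.

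Where a probe's target spans more genome than the probe's own 60 bases, the probe crosses an exon junction, and 5 of the 19 probes do by this measure. The following 3 are shown because they read the genes that the results turn on, a called tenascin, a called thrombospondin and an abundant gene that was not called. They are printed as the array files give them, in lower case throughout, with positions on mouse genome build mm9.
Tnc, A_52_P355169, chr4:63674248-63675011, minus strand: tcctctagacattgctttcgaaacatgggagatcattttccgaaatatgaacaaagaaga
Thbs2, A_51_P461877, chr17:14804526-14805789, minus strand: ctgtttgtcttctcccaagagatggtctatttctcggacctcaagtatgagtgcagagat
Sparc, A_52_P101852, chr11:55209449-55212106, minus strand: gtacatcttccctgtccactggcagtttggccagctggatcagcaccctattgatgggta
These targets cover 764, 1264 and 2658 genomic bases. Whether the other probes lie in coding sequence or in an untranslated region was not established, because no annotation of build mm9 was used here.

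Depending on the array, the scanner software called 26397 to 28907 probes well above background for the mutant RNA and 26289 to 27717 for the control RNA, and no spot was saturated. Dicer1 itself stood at 0.04 ± 0.22 (adjusted p = 0.947, limma) with its brighter probe. With the other probe it stood at -0.06 ± 0.18 (adjusted p = 0.929 over all probes). Astroglia are a minority of this tissue, and where the probes lie relative to the floxed part was not established. Neither value measures the deletion, and the reason for the flat values was not tested. Markers of the labelled tissue were present, since all 12 genes of the Purkinje and granule neuron lists passed the filter on dim probes. Precision is set by the small number of arrays. All 4 arrays were on 1 slide, and the dye was balanced, with the mutant in Cy5 in pairs 1 and 3 and in Cy3 in pairs 2 and 4.

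Tnc had the largest ratio among the members. With its brightest probe (A_51_P291438, chr4:63620819-63620864, minus strand) its normalized log2 intensity was 11.57, 12.02, 11.33 and 11.48 in the mutants of pairs 1 to 4, and 9.40, 9.44, 9.31 and 9.50 in their control littermates. The position given for this probe spans 46 bases, fewer than its 60. The lowest mutant lay well above the highest control, so the groups did not overlap, and controls were closer to each other than mutants were. The log2 ratio was 2.17, 2.58, 2.02 and 1.98 in the 4 pairs, which gives 2.19 ± 0.27 (95% interval 1.91 to 2.47, or 3.77-fold to 5.52-fold, adjusted p = 0.00431, limma). The mean was 2.10 over the 2 pairs with the mutant in Cy5 and 2.28 over the 2 with the mutant in Cy3. The signal of this probe was well above background in all 4 mutants and all 4 controls, so both sides of the ratio were measured. The mean over the 3 Tnc probes was 1.23, which is no independent check, since a probe could enter that mean through its mutant channel alone.

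**Figure D1:**
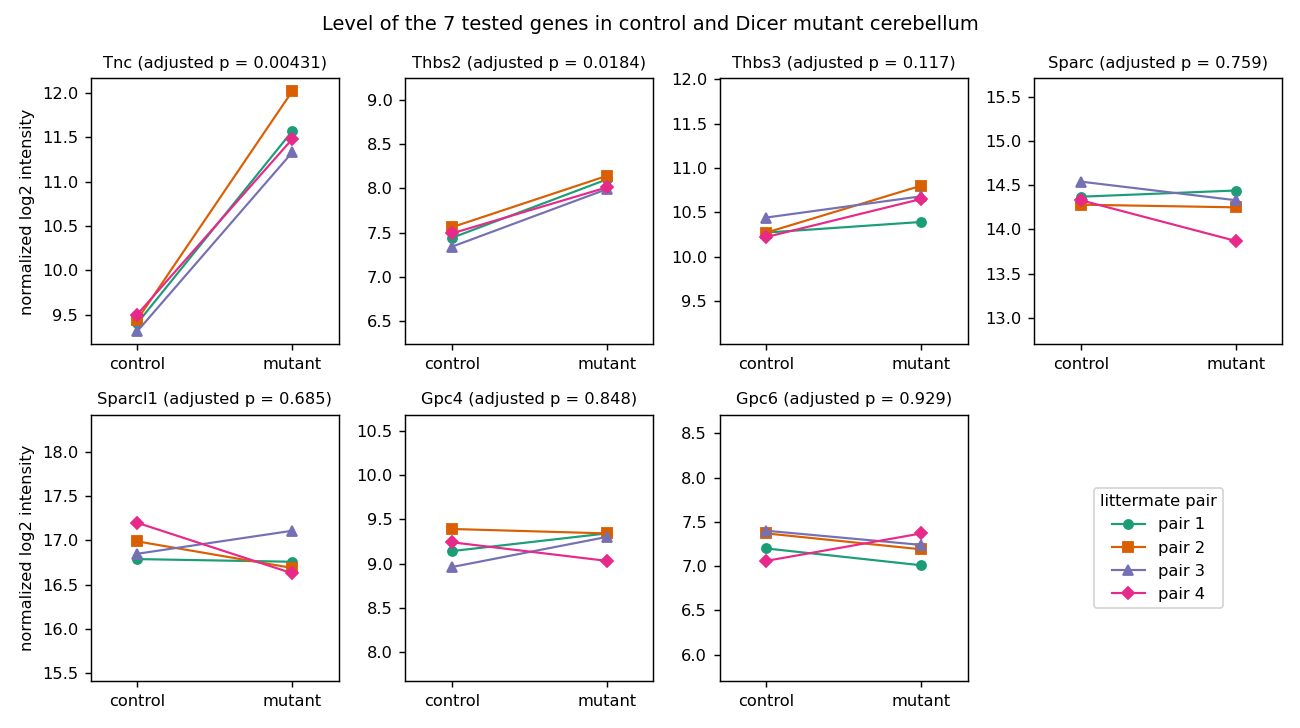
Normalized log2 intensity (vertical axis, each panel spans the same 3 log2 units) of the brightest probe of the 7 tested genes in control and mutant cerebellum, with a line for each of the 4 littermate pairs; Tnc climbs steeply in every pair from controls at or under 9.50 to mutants at or above 11.33, Thbs2 rises in 4 nearly parallel lines, and the lines of Sparc, Sparcl1, Gpc4 and Gpc6 cross.

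The other Tnc probes gave ratios above 0 in all 4 pairs as well, at sizes that changed with the processing. The probe across the exon junction printed above stood at 0.83, 0.81, 0.63 and 1.19, or 0.86 ± 0.23, and was called (adjusted p = 0.0256 over all probes, limma). Its control channel was well above background on 0 of 4 arrays, and it entered the test through its mutant channel alone, so it had to be brighter in mutants to be tested at all. Measured against the dimmest control signal called well above background on each array, or the probe's own control signal where that was higher, it was 1.81-fold higher in mutants. That nearly repeats the plain 1.82-fold of this processing and is no lower limit over other processing. Its call was lost without replicate 1 (0.81, adjusted p = 0.111, limma), without replicate 3 (0.91, adjusted p = 0.0689) and when spots with an outlier flag were dropped only after the background fit (0.67, adjusted p = 0.156). The third probe, A_51_P324992 (chr4:63645878-63645937, minus strand), which was designed on a cDNA of neonatal cerebellum, stood at 0.79, 0.44, 0.22 and 1.08, or 0.64 ± 0.38, and was not called (adjusted p = 0.217, limma). Its control channel was well above background on 3 of 4 arrays. Pair 3 had the lowest and pair 4 the highest ratio with both dim probes, while with the bright probe pair 4 was the lowest and pair 2 the highest.

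The size of the Tnc ratio at the dim probes changed with the treatment of background. Without the offset of 50 intensity units that is added after background correction, the junction probe stood at 1.68 and A_51_P324992 at 1.08, and with the processed signals of the scanner software at 2.87 and 1.49. The bright probe moved little, to 2.28 and 2.31 in the same settings. The order of the bright and the junction probe therefore turned with the processed signals. The deposited value table holds nearly the same ratios (2.31 and 2.87) and is no second check. No order is read from these 2 probes. The bright probe exceeded A_51_P324992 in each of these settings, and within pairs by 1.55 ± 0.54 with the offset of 50, in 4 of 4 pairs. An exact two-sided sign-flip permutation test gave p = 0.125, the smallest value that 4 pairs allow, and 0.125 after adjustment over the 4 such differences computed. The probes lie 25059 and 53429 bases from the bright one on the genome.

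**Figure D2:**
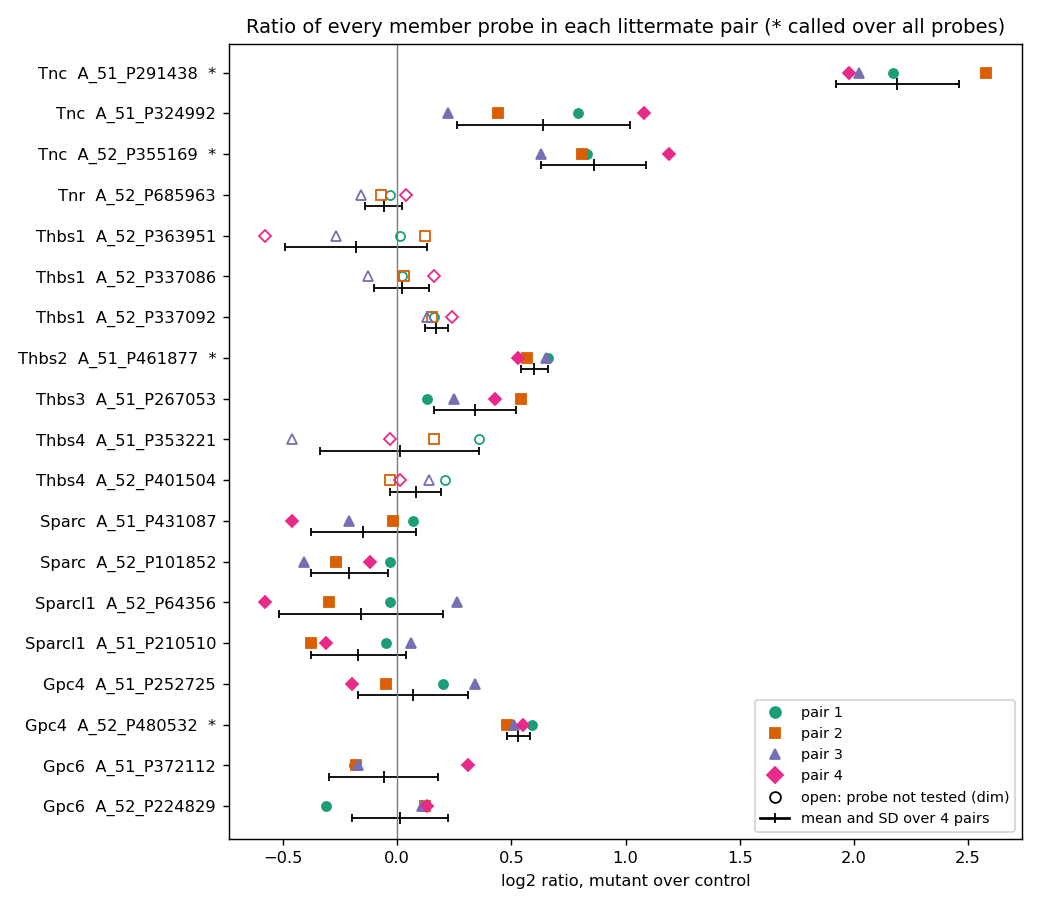
Log2 ratio of mutant over control (horizontal axis) for all 19 probes, with a symbol for each littermate pair, open symbols for the 6 probes that did not pass the filter on dim probes, and the mean and SD under each row; the bright Tnc probe lies near 2, Thbs2 and 1 of the 2 Gpc4 probes form tight groups near 0.6 and 0.5, and most other probes straddle 0.

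Tnr, the second tenascin, was read by 1 probe alone, at the limit of detection. Its probe (A_52_P685963, chr1:161844737-161849107, plus strand) was well above background in 1 of 4 mutants and 2 of 4 controls. Its ratios of -0.03, -0.07, -0.16 and 0.04 average -0.06 ± 0.08, and the probe did not pass the filter on dim probes. Of the markers of oligodendrocytes, a source of Tnr, all 8 were tested and none was called. Their mean ratios all lay below 0, from -0.40 to -0.22, with a median of -0.28. Their summed intensity was 200706 to 253321 in mutants and 241647 to 294790 in controls.

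Among the thrombospondins, Thbs2 rose. Its log2 intensity was 8.10, 8.14, 7.99 and 8.01 in mutants and 7.44, 7.56, 7.34 and 7.49 in controls, with no overlap. The ratios of 0.66, 0.57, 0.65 and 0.53 were the most even of any called member gene, at 0.60 ± 0.06 (95% interval 0.46 to 0.74, adjusted p = 0.0184, limma). This gene has 1 probe on the design. The adjusted p of Thbs2 was 0.138 without replicate 1 and 0.115 without replicate 3, at an unchanged ratio of 0.60 in both, and 0.224 at a ratio of 0.46 when spots with an outlier flag were kept for the background fit and dropped only afterwards. The ratio was 0.79 without the offset and 0.89 with the processed signals.

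Thbs3, which forms pentamers like Thbs4, was brighter in mutants in all 4 pairs but was not called. It read 10.39, 10.80, 10.68 and 10.65 in mutants against 10.27, 10.27, 10.44 and 10.22 in controls, and the mutant of pair 1 lay below the control of pair 3. The ratio was 0.34 ± 0.18 (95% interval 0.18 to 0.49, adjusted p = 0.117, limma). Its mean was 0.19 with the mutant in Cy5 and 0.48 with the mutant in Cy3. Over all genes, 7.75% had a ratio above 0 in all 4 pairs. The ratio of Thbs2 exceeded that of Thbs3 by 0.27 ± 0.24, in 4 of 4 pairs (exact two-sided sign-flip permutation p = 0.125, the smallest that 4 pairs allow).

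The 3 probes of Thbs1 and the 2 of Thbs4 did not pass the filter on dim probes. For Thbs1, the most widely studied synapse-promoting thrombospondin, 2 probes were well above background on no array in either genotype, so no ratio is read from them. The third Thbs1 probe, A_52_P363951, reached that level in 1 of 4 mutants and 2 of 4 controls, with ratios of 0.01, 0.12, -0.27 and -0.58. For Thbs4 the probes reached it in 3 of 4 and 2 of 4 animals of each genotype, with mean ratios of 0.01 ± 0.35 and 0.08 ± 0.11. With no filter on dim probes, limma called none of Thbs1 (-0.18, adjusted p = 0.851), Thbs4 (0.01, adjusted p = 0.997) and Tnr (-0.06, adjusted p = 0.910). A Thbs4 probe passed the filter once replicate 1 was left out (-0.20, adjusted p = 0.997, limma) or replicate 3 (0.21, adjusted p = 1), and was not called in either case. With signals this close to background, a fall in mutants could not be measured in full.

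Sparc and Sparcl1 were bright and did not pass the test. The brighter Sparc probe (A_51_P431087) read 14.44, 14.25, 14.33 and 13.87 in mutants and 14.37, 14.28, 14.54 and 14.33 in controls. Pair 4 alone was well below its littermate, and the groups overlapped. The ratio was -0.15 ± 0.23 (95% interval -0.40 to 0.09, or 0.758-fold to 1.06-fold, adjusted p = 0.759, limma). The junction probe of Sparc printed above was below 0 in all 4 pairs, at -0.03, -0.27, -0.41 and -0.12, and was not called either (-0.21 ± 0.17, adjusted p = 0.629).

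Sparcl1, one of the transcripts that mark astroglia most strongly, read 16.76, 16.69, 17.11 and 16.63 in mutants and 16.79, 16.99, 16.85 and 17.20 in controls with probe A_52_P64356. Pairs 2 and 4, with the mutant in Cy3, had ratios of -0.30 and -0.58, while pairs 1 and 3 had -0.03 and 0.26. The mean was -0.16 ± 0.36 (95% interval -0.37 to 0.05, adjusted p = 0.685, limma). The second Sparcl1 probe gave -0.17 ± 0.21 (adjusted p = 0.572) with the same split by dye, at 0.01 and -0.34. The 95% intervals of the second probes, which are not adjusted for the number of probes, ran from -0.42 to 0.00 for Sparc and from -0.32 to -0.01 for Sparcl1.

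The 2 probes of glypican 4 differed. The brighter Gpc4 probe, A_51_P252725 (chrX:49406388-49406447, minus strand), read 9.34, 9.34, 9.30 and 9.03 in mutants and 9.14, 9.39, 8.96 and 9.24 in controls, with a ratio of 0.07 ± 0.24 (95% interval -0.09 to 0.24, adjusted p = 0.848, limma). The dimmer probe, A_52_P480532 (chrX:49404329-49404388, minus strand), read 8.44, 8.33, 8.16 and 8.18 in mutants and 7.85, 7.85, 7.66 and 7.63 in controls. Its groups did not overlap, and its ratios of 0.59, 0.48, 0.51 and 0.55 gave 0.53 ± 0.05, which was called (adjusted p = 0.0324 over all probes, limma). This probe was designed on a cDNA clone (AK020640) that the array file describes as unclassifiable and places under the gene name Gpc4, and it lies 2059 bases further along the strand of the gene than the other probe. The dimmer probe exceeded the brighter by 0.46 ± 0.25, in 4 of 4 pairs (exact two-sided sign-flip permutation p = 0.125, the smallest that 4 pairs allow). Its call was lost in 7 of 18 alternative settings, among them without replicate 1 (adjusted p = 0.267), without replicate 3 (adjusted p = 0.189) and with the processed signals (0.67, adjusted p = 0.0566). With the mean over both probes, Gpc4 stood at 0.30 and was not called (adjusted p = 0.106).

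Gpc6 was dim and not called with either probe. Its brighter probe, A_51_P372112, read 7.01, 7.19, 7.24 and 7.37 in mutants and 7.20, 7.37, 7.40 and 7.06 in controls, with a ratio of -0.06 ± 0.24 (95% interval -0.29 to 0.18, adjusted p = 0.929, limma). Pair 4 was the only one above 0. The other probe gave 0.01 ± 0.21 (adjusted p = 0.988), and there pair 1 was the only one below 0.

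**Figure D3:**
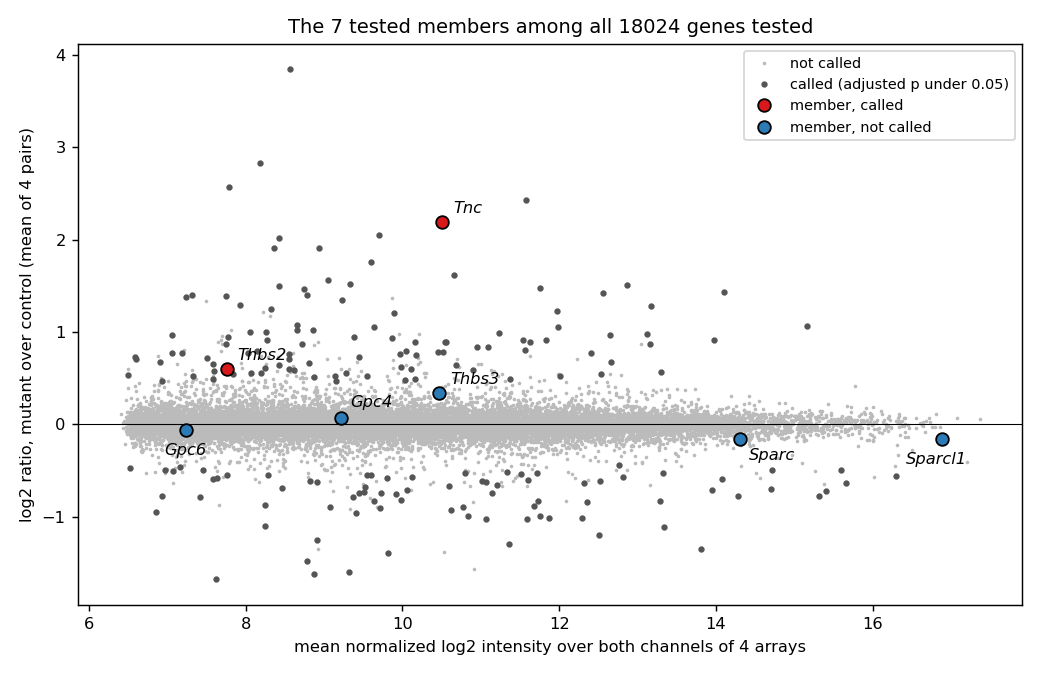
Mean log2 ratio of mutant over control (vertical axis) against mean normalized log2 intensity (horizontal axis) for all 18024 genes tested, with the 7 tested members as large points; Tnc at 2.19 stands far above the band of genes that were not called, Thbs2 at 0.60 lies at its upper edge, and Sparc and Sparcl1 sit at the bright end just below 0.

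The genes whose 4 pair ratios were most like those of Tnc, by the root mean square difference over the 4 pairs, were Frem2, a basement membrane protein (2.01 ± 0.13, difference 0.27), P4ha2, a collagen prolyl hydroxylase (2.43 ± 0.21, difference 0.33), and Cybrd1, a ferric reductase (1.90 ± 0.40, difference 0.36). All 3 were called (adjusted p = 0.00161, 0.00214 and 0.0127, limma), but Frem2 (1.65, adjusted p = 0.0718) and Cybrd1 (1.57, adjusted p = 0.0865) were not when spots with an outlier flag were dropped only after the background fit. For Thbs2 they were Pdlim3, a cytoskeletal PDZ-LIM protein (0.60 ± 0.10, difference 0.08), the kinase gene Tec (0.61 ± 0.13, difference 0.08) and D630039A03Rik (0.55 ± 0.14, difference 0.09), also all called (adjusted p = 0.0264, 0.0219 and 0.0313). The calls of these 3 neighbours of Thbs2 were lost without replicate 1 (adjusted p between 0.136 and 0.221, limma) and without replicate 3 (between 0.115 and 0.153). They were also lost with median centring (between 0.0581 and 0.0619) and with outlier flags applied after background correction (between 0.126 and 0.263). The measure picks genes whose pair ratios are of like size to those of a called gene, so their own calls are no separate result. It says nothing about shared function or control. It used the brightest probe of each gene. The other Frem2 probe stood at 0.96 ± 0.14 (adjusted p = 0.0139 over all probes, limma). The other Tec probe stood at 0.42 ± 0.17 (adjusted p = 0.176) and the other Pdlim3 probe at 0.46 ± 0.06 (adjusted p = 0.0466). The other probes of Cybrd1 and P4ha2 did not pass the filter on dim probes.

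Relatives of the 10 genes were examined next. Of 11 tested genes of the same families, 1 was called higher and none lower, with a median of -0.04. The called gene was Fstl1, a secreted protein with a follistatin-like domain of the kind found in SPARC, whose ratios of 0.84, 0.91, 0.52 and 1.09 gave 0.84 ± 0.24 (adjusted p = 0.0184, limma). The call of Fstl1 was lost when replicate 1 was left out (0.76, adjusted p = 0.0793), under median centring (0.83, at an adjusted p of 0.0586) and in a fit that ignored the pairing (adjusted p = 0.287). Among the glypicans that are no members, the astroglial Gpc5 stood at -0.40 ± 0.17 (adjusted p = 0.157), and Gpc5 was named after its value was seen.

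Of 16 tested receptors and partners of thrombospondins and SPARC proteins, 1 was called higher and none lower, with a median of 0.06. It was Itgb1, the integrin beta-1 subunit shared by many matrix receptors, at 0.50, 0.44, 0.40 and 0.61, or 0.49 ± 0.09 (adjusted p = 0.0448, limma). In the fit over single probes the same Itgb1 probe was not called (adjusted p = 0.0553 over all probes, limma). Nor was the other Itgb1 probe well above background, A_52_P351816, at 0.25 ± 0.16 (adjusted p = 0.306 over all probes, limma). The call of the gene was lost in 11 of 19 alternative settings, with ratios between 0.37 and 0.53. Without replicate 1 its adjusted p was 0.311, without replicate 3 it was 0.208 and without replicate 4 it was 0.0511. The neuronal thrombospondin receptor gene Cacna2d1 stood at 0.07 ± 0.09 (adjusted p = 0.851), and was named for its role after the values were seen.

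Of 9 tested receptors and partners of tenascins none was called, with a median of -0.12. The members with the smallest p were Sdc4, a heparan sulfate proteoglycan of the cell surface (-0.62 ± 0.84, adjusted p = 0.0533, limma), and Egfr (-0.20 ± 0.19, adjusted p = 0.502). The other tested probes of Egfr stood at -0.01, -0.02 and 0.09. Of 8 tested receptors and partners of glypicans none was called either, with a median of -0.03. Notum, a secreted Wnt deacylase that binds glypicans, stood at -0.15 ± 0.04 (adjusted p = 0.497) and the receptor phosphatase gene Ptprf at -0.18 ± 0.39 (adjusted p = 0.814). Sdc4 was called lower in 5 of 19 alternative settings, with adjusted p between 0.031 and 0.0471 (limma) and ratios between -0.66 and -0.55. For Sdc4 the dye, which is fitted as a term of its own, made up much of the SD, with ratios of -0.10 and 0.29 in pairs 1 and 3 and -1.25 and -1.41 in pairs 2 and 4.

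The perisynaptic matrix, made of hyaluronan, lecticans and link proteins to which tenascin-R binds, had no called gene among 11 tested, with a median of -0.04. Cspg5, a transmembrane chondroitin sulfate proteoglycan, stood at 0.46 ± 0.20 (adjusted p = 0.138, limma) and the lectican Bcan at -0.32 ± 0.24 (adjusted p = 0.152). The other Cspg5 probe stood at 0.27 ± 0.11. Of 16 other factors through which astroglia act on synapses, 1 was called lower and none higher, with a median of 0.06. The gene called lower was Mdk, the heparin-binding growth factor midkine, at -0.37, -0.51, -0.54 and -0.68, or -0.52 ± 0.13 (adjusted p = 0.0420, limma). In the fit over single probes this Mdk probe was not called (adjusted p = 0.0512, limma). The other Mdk probe, at -0.65 ± 0.22, was called there (adjusted p = 0.0258). Mdk did not pass in 7 of 19 alternative settings, including without replicate 1 (adjusted p = 0.182), without replicate 3 (adjusted p = 0.253) and with the processed signals (adjusted p = 0.0856).

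**Figure D4:**
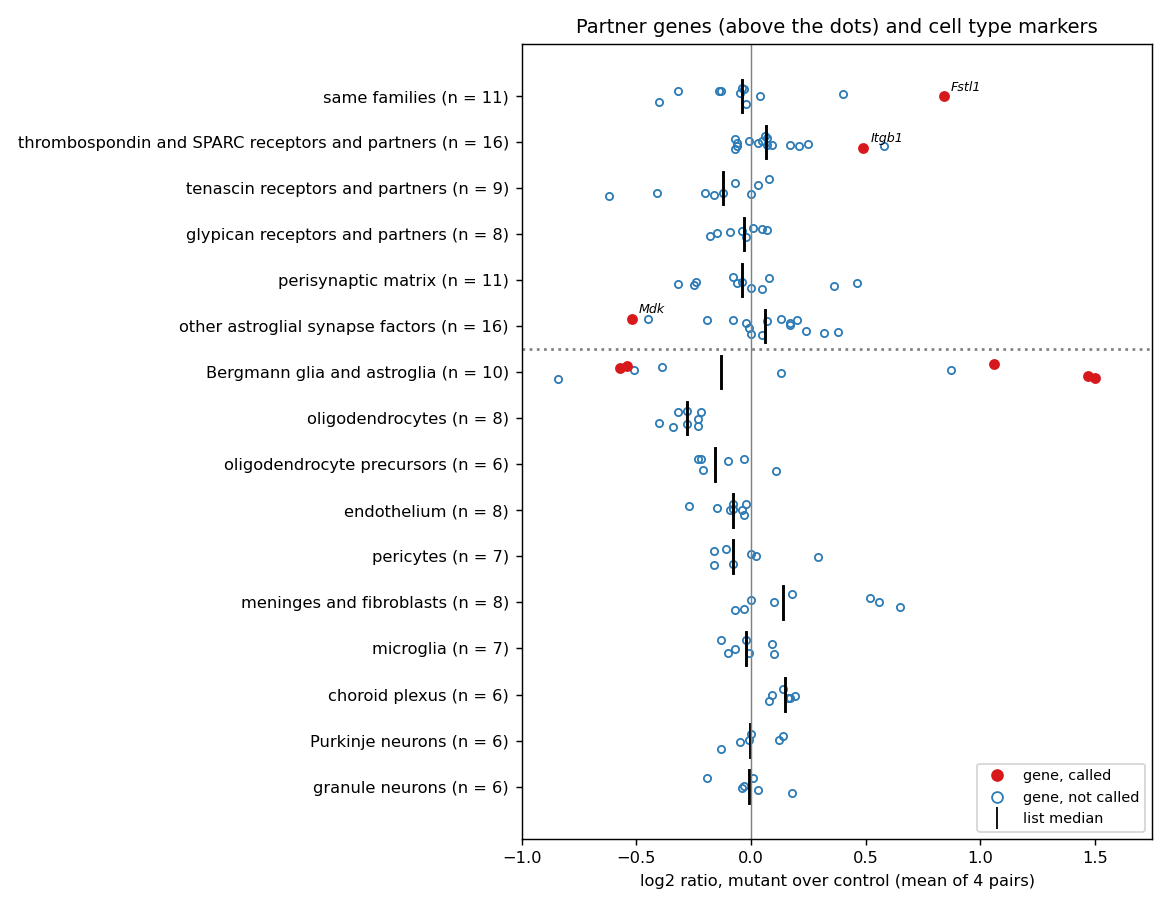
Mean log2 ratio of mutant over control (horizontal axis) of each tested gene in 6 lists of relatives and partners, above the dotted line, and in 10 lists of cell type markers below it, with called genes filled and list medians as bars; in the partner lists Fstl1 and Itgb1 are the only filled points above 0 and Mdk the only one below, while among the markers only the astroglial list holds filled points, on both sides of 0.

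Markers of the cells that make these proteins were set beside the changes. Of 10 markers of Bergmann glia and astroglia, all tested, 3 were called higher and 2 lower, with a median of -0.13, and their summed intensity was 120342 to 177217 in mutants and 93156 to 116800 in controls. Those that rose were Gfap, an intermediate filament protein (1.47 ± 0.35, adjusted p = 0.0137, limma), the folate enzyme gene Aldh1l1 (1.50 ± 0.23, adjusted p = 0.00529) and Fabp7, a fatty acid binding protein of Bergmann glia (1.06 ± 0.51, adjusted p = 0.0171). Those that fell were the glutamate transporter gene Slc1a2 (-0.57 ± 0.11, adjusted p = 0.0271) and the water channel gene Aqp4 (-0.54 ± 0.26, adjusted p = 0.0262). The summed intensity of this list is on a linear scale and follows its brightest markers, so it does not measure astroglial RNA as a whole. Fabp7 had a mean log2 intensity of 15.69 in mutants and 14.62 in controls, and Slc1a3, which was not called, 15.02 and 15.52. The calls of Slc1a2 and Aqp4 were lost without replicate 1 (adjusted p = 0.181 and 0.182, limma) and without replicate 3 (0.166 and 0.185), and that of Fabp7 without replicate 3 (0.0592). Of the 8 markers of meninges and fibroblasts, which also express Thbs2, Fstl1 and Sparc, none was called. Their median was 0.14, their sum was 25510 to 33779 in mutants and 22015 to 29535 in controls, and single markers ranged from -0.07 (Ogn) to 0.65 (Col1a1). Dcn stood at 0.52 ± 0.30 and Lum at 0.56 ± 0.36, while Igf2 was at 0.18, Slc6a13 at 0.10, Mgp at 0.00 and Col1a2 at -0.03. Col1a1 was high in pair 1 alone, at 2.06 against 0.16 to 0.20 in the other pairs. Without that pair the ratio of Thbs2 was 0.60 and its call was lost (adjusted p = 0.138, limma). These markers were named after their values were seen, and the part of either cell type in the higher level of Tnc, Thbs2 and Fstl1 was not tested. The 8 endothelial and 7 pericyte markers, from cells that are rich in Sparc, had medians of -0.08 each and no called gene, and their sums overlapped between genotypes. All 72 markers of the 10 lists passed the filter on dim probes.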

How the data were processed

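Cerebellar RNA of 4 littermate pairs was labelled from 500 ng of total RNA per animal and hybridised to 4 two-colour Agilent arrays. The deposited files hold spot intensity values on a linear scale, extracted with Agilent Feature Extraction 10.5.1.1 per the file headers, and positions on mouse build mm9. A deposited table of the series holds log10 ratios, which equalled the scanner software's processed log ratios turned to mutant over control, to within 4.84e-06. It served as an alternative, although it nearly repeats the one with the processed signals. Counts over the alternatives therefore hold that setting under both names.

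Spots with an outlier flag, of the spot or its local background (143 to 248 per array), were left out. Mean spot intensities were background-corrected with normexp (offset 50) and normalized by loess within each array (limma 3.58.1, R 4.3.3), with control spots at weight 0. The pairing lies within each array's ratio, and limma fitted genotype and dye, with p values adjusted by Benjamini-Hochberg. Channel levels were scaled between arrays (Aquantile) for display. A probe was tested if well above background in all 4 mutants or all 4 controls, with values on at least 3 arrays, and the brightest probe stood for its gene. The fit was also run on simulated normal ratios with variances drawn from its own estimates, which does not test its assumptions on these arrays.

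Of 41174 probes, 24844 were named through their accession and 16330 as in the array file. Members followed the array's own gene name. The members and gene lists were chosen with earlier results of these data known. Named were all members, Dicer1, of each partner list the called genes or else the 2 with the smallest p, and the 3 genes most like each called member. Marker genes, Gpc5 and Cacna2d1 were added after their values were seen. Alternatives changed the background, flags, signal, normalization, filter, model, probe rule and replicates. Flags of the spot alone were an alternative chosen after seeing the data.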

Additional observations from a re-analysis of the deposited data

Results flagged for a closer look

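Over the 39 sets of 4 pair ratios examined, 5 held a pair far from the other 3, by a gap to its nearest neighbour that exceeded Dixon's 95% critical value as a share of the whole range. Chance alone sets apart about 5% of such sets where they are not picked by their values. Part of the 39 were picked so, as called genes, as genes most like a called member or as markers named late. The 5 sets are therefore not weighed against that share. For the brighter Gpc6 probe, A_51_P372112, the gap was 0.958 of the range, with pair 4 at 0.31 and the others between -0.19 and -0.17. For the other Gpc6 probe, A_52_P224829, it was 0.947, with pair 1 at -0.31 and the others between 0.11 and 0.13, so a different pair stood apart with each probe of this glypican.

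Among the marker genes, the gap was 0.981 for Col1a1, a fibrillar collagen of fibroblasts, with pair 1 at 2.06 and the others between 0.16 and 0.20. For Lum, the fibroblast proteoglycan lumican, it was 0.830, with pair 1 at 1.09 and the others between 0.33 and 0.46. For the astroglial glutamate transporter gene Slc1a2 it was 0.879, with pair 4 at -0.41 and the others between -0.64 and -0.61.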

How the results depend on the processing

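Tnc was called in 19 of 19 alternatives, with ratios between 1.23 and 2.34 and adjusted p (limma) between 0.000198 and 0.015. Thbs2 kept its call in 16 of 19, with ratios between 0.46 and 0.89, and no member was called lower in any of the 19. With spots carrying an outlier flag dropped only after the background fit, 50 genes were called higher and 32 lower, against 106 and 80, and 1 member and 1 member probe were called higher. With the processed signals, and with the deposited value table, 53 genes were called lower. With median centring, 2 member probes were called higher, against 4. Leaving out 1 replicate in turn gave 44 to 216 genes higher and 13 to 127 lower, where both minima came from dropping pair 1, while dropping pair 3 left 60 and 31 and dropping pair 4 left 216 and 121. Members called higher ranged from 1 to 2 and member probes from 1 to 5, and 1 of each was left when pair 1 or pair 3 was dropped. Without replicate 2 the Tnc probe A_51_P324992 was also called (0.80, adjusted p = 0.0382, limma).

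The ratios that changed sign were close to 0. Gpc6, with its probe A_51_P372112, stood at 0 after rounding with the processed signals and with the value table, and ranged from -0.18 to 0.07 over the omissions of 1 replicate. The Gpc6 probe A_52_P224829 stood at 0 with median centring and ranged from -0.09 to 0.12. Dicer1 stood at -0.01 with the mean over its probes and ranged from -0.05 to 0.13, and Ptprf ranged from -0.37 to 0.01. Over single genes and probes, 766 comparisons with an alternative kept direction and side of the threshold, 71 lost a call, 8 gained one and 12 changed sign. The cause was not tested. Without the pairing as a replicate block, the Gpc4 probe A_52_P480532 (0.53, adjusted p = 0.0715, limma), Fstl1 (0.287), Itgb1 (0.0582), Tec (0.0939), Aqp4 (0.0761), Fabp7 (0.0761) and Slc1a2 (0.0503) were not called, and no other named gene or member probe changed its call. The median of all genes moved by at most 0.02. The mean over probes gives no value for single probes. Low signal kept Tnr, Thbs1 and Thbs4 below the filter on dim probes and limited the control side of the Tnc junction probe.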

Other observations

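Some relatives and partners of the 10 genes varied between pairs more than any of those genes did. Ptprz1, a receptor phosphatase of glia that binds tenascins, stood at -0.01, -0.29, 0.55 and -1.88 in pairs 1 to 4, or -0.41 ± 1.04 (adjusted p = 0.764, limma). Comp, the thrombospondin of cartilage, stood at 0.55, 0.21, -1.34 and -0.69, or -0.32 ± 0.86 (adjusted p = 0.863, limma). The 2 probes of Sdc4 did not follow each other across pairs. With A_51_P323248 the ratios were -0.10, -1.25, 0.29 and -1.41, so both pairs with the mutant in Cy3 were low. With A_52_P93467 they were -2.23, 0.64, -1.67 and -1.28, so pair 2 alone was above 0. These genes were picked after their values were seen, and no explanation was tested.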
